A study of Mus musculus with 2 samples.

Results

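Cycling neutrophil precursors are immature neutrophils that still divide while they fill their secondary granules. Here they were chosen by their measured UMIs, as the cell barcodes with at least 200 detected genes and at most 10% mitochondrial UMIs (unique molecular identifiers, counted RNA molecules) that met 2 positive gates. Camp, Ngp and Ltf together made up at least 1.5% of the UMIs of the cell, and the 6 division genes Top2a, Mki67, Hist1h1b, Ube2c, Birc5 and Cdk1 together gave at least 10 UMIs. Cells with 20 or more UMIs of Elane, Prtn3, Mpo and Ctsg (primary granule genes), with 5 or more of C1qa, C1qb and C1qc (macrophage genes) or with 4 or more of Ccr2 and F13a1 (monocyte genes) were left out. The rule took 548 of 6662 filtered cells, of 6803 deposited barcodes. Of these, 262 of 3149 filtered cells came from the implanted library and 286 of 3513 from the non-implanted library.

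The study compared cochlear cells of mice after placement of a cochlear implant electrode array. Per the labels, both libraries came from pooled male and female mice of strain C57BL/6J/B6 with genotype CX3CR1+/GFP Thy1+/YFP, so both groups share one GFP allele of Cx3cr1 and a YFP transgene under the Thy1 promoter. The tissue was taken 33 days after implantation, and CD11b-positive cells were selected with magnetic beads and captured in droplets for 3' RNA sequencing. The groups are Electrode implanted and Non-implanted, with 1 library each and no replicate. The number of animals is not given. The series text says that the opposite ear was dissected as well, but the labels do not say that the non-implanted library holds those ears. The series title names dexamethasone-eluting and standard arrays, and the labels do not say which array was implanted.

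Neutrophils are made from progenitors that divide while granule proteins are produced in waves. Primary granule proteases come first, at the promyelocyte stage. Secondary granule proteins such as lactoferrin and cathelicidin follow in myelocytes and metamyelocytes, and gelatinase-type tertiary granule proteins come last, in cells that have left the cell cycle. In dividing cells, E2F factors act on promoters of genes needed for DNA replication, while a complex with B-Myb and FoxM1 acts on promoters of mitotic genes through a cell cycle homology region, often beside CCAAT boxes that bind NF-Y.

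Promoters of 6 genes that this population transcribed are shown because they carry the letters searched in the promoter comparison below and stand for both arms of the cycle. Cdk1 (the mitotic kinase, also a gene of the rule), Ube2c (a ubiquitin-conjugating enzyme of mitotic exit, also of the rule), Cdc20 (an activator of the anaphase-promoting complex) and Kif11 (a spindle motor) belong to mitosis. Mcm6 (a subunit of the replicative helicase) and Rrm1 (the large subunit of ribonucleotide reductase) belong to DNA replication. The sequences are RefSeq promoters on GRCm38.p6, 130 bases up to the base before the annotated start, written 5′ to 3′ on the strand of the gene. Capitals mark TTTGAA (the core of the cell cycle homology region), its reverse complement TTCAAA, the letters CCAAT with their reverse complement ATTGG, and the E2F letters. The E2F letters searched on both strands were TTGGCGC, another form written TTCGCGC, a further form written TTCCCGC and a last form written TTGCCGC, and matches may overlap. The places are chr10:69352913-69353042 on the minus strand for Cdk1, chr2:164769799-164769928 on the plus strand for Ube2c and chr4:118437344-118437473 on the minus strand for Cdc20. Kif11 lies at chr19:37376252-37376381 on the plus strand, Mcm6 at chr1:128359706-128359835 on the minus strand and Rrm1 at chr7:102441565-102441694 on the plus strand.
Cdk1: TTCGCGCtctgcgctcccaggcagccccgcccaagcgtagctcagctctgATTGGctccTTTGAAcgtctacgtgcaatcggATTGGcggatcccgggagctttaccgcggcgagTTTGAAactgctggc
Ube2c: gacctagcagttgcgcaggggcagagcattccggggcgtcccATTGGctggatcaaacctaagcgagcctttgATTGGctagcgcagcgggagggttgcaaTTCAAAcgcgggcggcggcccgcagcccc
Cdc20: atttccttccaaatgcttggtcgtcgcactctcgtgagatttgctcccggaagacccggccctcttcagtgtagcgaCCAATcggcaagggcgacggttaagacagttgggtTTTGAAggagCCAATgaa
Kif11: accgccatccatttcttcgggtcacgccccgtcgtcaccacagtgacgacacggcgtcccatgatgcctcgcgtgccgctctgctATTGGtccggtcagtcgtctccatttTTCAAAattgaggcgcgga
Mcm6: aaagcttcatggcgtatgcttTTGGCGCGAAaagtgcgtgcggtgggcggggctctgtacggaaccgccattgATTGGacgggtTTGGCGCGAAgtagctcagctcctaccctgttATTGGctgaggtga
Rrm1: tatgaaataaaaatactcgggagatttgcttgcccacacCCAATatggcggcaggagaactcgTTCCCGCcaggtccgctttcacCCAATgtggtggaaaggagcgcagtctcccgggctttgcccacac
In these windows the Cdk1 promoter holds 2 TTTGAA, 2 CCAAT and 1 E2F match. The Mcm6 promoter holds 0 TTTGAA, 2 CCAAT and 4 overlapping E2F matches, so CCAAT and E2F letters occur in both.

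The label was checked against markers outside the rule, since the gates fix the levels of the genes they use. Of 11 neutrophil precursor markers the rule used 5, and the other 6 (Lcn2, Cebpe, Fcnb, Chil3, Cd177 and Tuba1b) were all detected and summed to 27486 CPM (UMIs per 1000000 of the summed cells) in implanted and 27907 CPM in non-implanted precursors, against 20215 and 21913 CPM in the non-cycling cells that are described next. These sums rest mostly on Lcn2 and Chil3, and the markers did not all move alike. Of those whose levels are given below, Chil3, Fcnb, Cebpe and Tuba1b were higher in precursors than in non-cycling cells, while Lcn2 was slightly lower. Outside the rule, 2 promyelocyte markers summed to 184 and 174 CPM (26.0 and 25.5 CPM in non-cycling cells), 5 monocyte markers to 444 and 503 CPM (565 and 657 CPM), and 5 macrophage markers to 40.2 and 37.5 CPM (115 and 66.5 CPM). Irf8, a factor of the monocyte path, was at 0 in precursors and in the non-cycling cells as well, while the other 4 monocyte markers outside the rule were detected. Cd3e, Trbc2, Ncr1, Klrb1c and Gzma of T and NK cells were at 0 in precursors, and Cd3d of the same list gave 7 implanted and 14 non-implanted UMIs. In the implanted precursors 1 cell held 98.7% of 1193 UMIs of fibroblast and osteoblast markers. In the non-implanted precursors 1 cell held 95.5% of 2724 erythroid UMIs and another 85.0% of 147 platelet UMIs, and results that rest on these 3 cells are also given without them.

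The precursors were the deeper cells, and a limit on raw division UMIs favours deep cells. Their median was 13070 UMIs and 3055.5 genes for implanted and 13947.5 UMIs and 3054.5 genes for non-implanted precursors, against 5326 and 5980 UMIs in the non-cycling cells. The highest Scrublet doublet scores fell on 11 implanted (4.20%) and 16 non-implanted precursors (5.59%), and on 36 (4.45%) and 52 (5.74%) of the non-cycling cells. Transcripts of both Xist and Y-linked genes were present in 6 implanted (2.29%) and 22 non-implanted precursors (7.69%), against 0.989% and 2.21% of non-cycling cells. The part of doublets and of free RNA in the results was not tested. The libraries shared 6 barcodes, and 0 of these were precursors. With 1 library per group no test was possible: values are given with exact 95% intervals where shown, which hold only the error of counting and leave out how animals vary.

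The UMIs of the 6 division genes, which are the measure of the rule, ran on across its limit, as the plot of cycle-gene UMIs shows. In the implanted library 711 of 1135 gated cells held 0 UMIs of the 6 genes, 120 held 30 to 49 and 77 held 50 or more, with 14 just inside the limit (10 to 14 UMIs) and 38 just outside it (5 to 9 UMIs). In the non-implanted library 810 of 1289 held 0, 126 held 30 to 49 and 75 held 50 or more, with 29 just inside and 61 just outside. Cells just inside and just outside had like depth and like granule transcripts: median UMIs were 8707 and 7921 in implanted cells and 9608 and 9123 in non-implanted cells, and Camp was at 56234 and 57818 CPM and at 65106 and 59263 CPM. Per UMI value there were 7.6 implanted and 12.2 non-implanted cells at 5 to 9 UMIs and 2.8 and 5.8 at 10 to 14. There were 3.0 and 1.8 at 15 to 19, 3.6 and 4.7 at 20 to 29, and 6.0 and 6.3 at 30 to 49. Cells were thus sparser from 10 to 29 UMIs than at 5 to 9 or at 30 to 49, but no empty gap marks the limit. Of the genes of the rule, Top2a was at 365 CPM just inside and 99.1 CPM just outside for implanted cells and at 153 and 70.3 CPM for non-implanted cells, and Mki67 was at 490 and 333 CPM and at 517 and 363 CPM. Gated cells with 0 to 2 UMIs served as the non-cycling group (809 implanted, 906 non-implanted), and those with 3 to 9 UMIs (64 and 97) were kept apart.

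**Figure D1:**
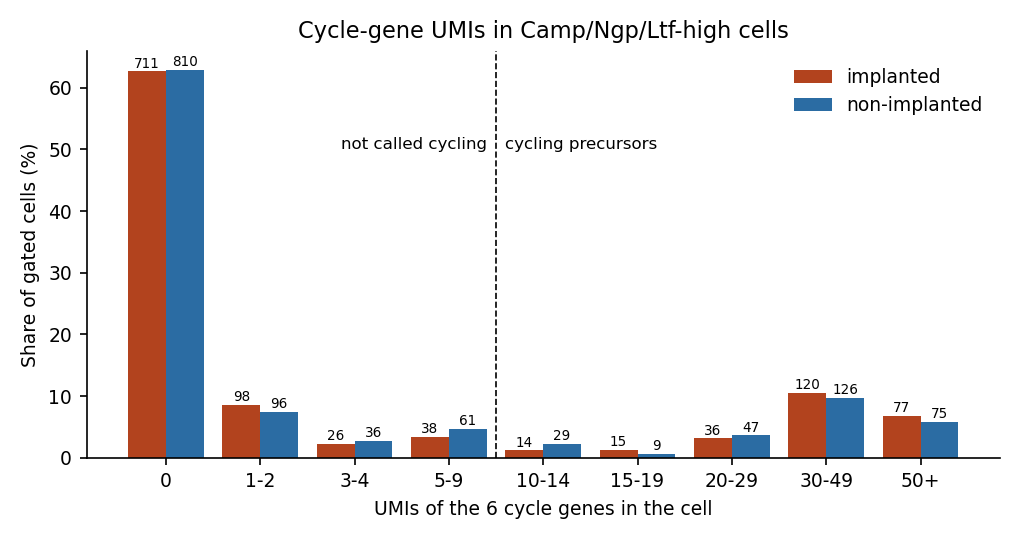
Share of gated Camp/Ngp/Ltf-high cells (percent, y axis) by the UMIs of the 6 division genes in the cell (x axis), for the implanted (red) and non-implanted (blue) library, with cell numbers above the bars and the limit of 10 UMIs as a dashed line. Most gated cells hold 0 such UMIs (711 and 810 cells); the bins differ in width, so bar heights are not densities, and cells lie on both sides of the limit.

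The share of cycling precursors was close in both libraries. They were 8.32% of filtered cells of the implanted library (interval 7.38 to 9.34) and 8.14% of the other (7.26 to 9.09), a difference of 0.179 percentage points (-1.14 to 1.51). Of the gated Camp/Ngp/Ltf-high cells they were 23.1% (20.7 to 25.6) and 22.2% (19.9 to 24.6). Among all filtered cells with at least 10 division UMIs, 419 implanted and 411 non-implanted, they were 62.5% (57.7 to 67.2) and 69.6% (64.9 to 74.0), a difference of -7.06 points (-13.4 to -0.612). The other dividing cells included 84 implanted and 62 non-implanted cells under the granule gate, and 62 and 43 cells with 20 or more primary granule UMIs. Precursors were 82.4% and 87.2% of the dividing granulocytic cells, counted as precursors plus the 56 implanted and 42 non-implanted cells that met every gate but the primary granule one, a difference of -4.81 points (-10.4 to 0.745). CD11b selection and dissociation act on these shares, and their part was not tested.

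The genes that chose the cells are given here as a description only. Top2a, the topoisomerase that untangles replicated chromosomes, was at 528 CPM in implanted and 486 CPM in non-implanted precursors against 3.53 and 2.74 CPM in non-cycling cells. Hist1h1b, a linker histone made during DNA synthesis, was at 617 and 528 CPM against 2.49 and 2.56 CPM. Camp was at 61950 and 63435 CPM against 42194 and 45439 CPM, whereas Ltf was at 9447 and 9428 CPM against 10888 and 11145 CPM. Over single cells the median of Camp was 62252 CPM (lowest 13638, highest 94321) in implanted and 63621 CPM (12935 to 97317) in non-implanted precursors.

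The first comparison set the precursors against the non-cycling cells of the same library. Beside the genes of the rule, 882 of 7600 genes with enough counts (11.6%) were at least 2-fold higher in the precursors in both libraries and 301 (3.96%) at least 2-fold lower, on the log2 scale of CPM plus 5. Since the rule chose the cells by division genes, all of these values are descriptions. The median log2 ratio of all genes was 0.13 in both libraries. Scaling by median of ratios moved this median to -0.08 and -0.09 and the calls to 691 higher and 526 lower, so that higher genes made up 56.8% of calls in place of 74.6%. With TMM scaling they made up 62.9% (743 higher and 439 lower).

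The precursors held transcripts for the whole division cycle. Of 57 G2/M and mitosis genes outside the rule 55 were at least 2-fold higher, with a median log2 ratio of 3.70 in implanted and 3.65 in non-implanted cells. Ccna2, the cyclin of S and G2 phase, was at 165 and 141 CPM in implanted and non-implanted precursors against 0.208 and 0.855 CPM in non-cycling cells. Kif11 was at 199 and 181 CPM against 0.830 and 2.05 CPM. Both mitotic genes were thus close to absent from the non-cycling cells of either library. Smc2, a condensin subunit that compacts chromosomes, was at 276 and 247 CPM against 2.70 and 2.39 CPM. Cdca3, Tacc3, Racgap1, Cenpa, Ncapd3, Nucks1 and Cdkn3 were among the 12 genes named for high log2 ratios of CPM plus 5. That ranking left out every gene with over 10% of its UMIs in 1 cell within the precursors or the non-cycling cells of either library, which removes genes with few UMIs in non-cycling cells such as Rrm2, Smc2, Kif11 and Ccna2, whose log2 ratios were higher than those of most of the 12. Ube2s and Pttg1 were the members of the list that stayed under 2-fold.

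DNA replication genes were higher as well, with a smaller median. Of 24 DNA and nucleotide synthesis genes 23 were at least 2-fold higher (median log2 ratio 2.42 and 2.22), and of 21 G1/S licensing genes 19 (2.27 and 2.36). Rrm2, the small subunit of ribonucleotide reductase, was at 279 and 255 CPM against 1.04 and 1.71 CPM. Tyms, the thymidylate synthase, was at 108 and 107 CPM against 1.45 and 1.03 CPM, and Mcm6 was at 61.2 and 55.3 CPM against 4.98 and 3.42 CPM. The ratio of CPM was 269 and 149 for Rrm2 but 12.3 and 16.2 for Mcm6, since non-cycling cells still held some Mcm6. Of 18 replication-dependent histone genes 16 were at least 2-fold higher (2.42 and 2.26). These histone genes are near-identical copies in clusters and mostly lack a poly(A) tail, so that single members are uncertain in poly(A)-primed counts. Neil3, a DNA glycosylase of replicating cells, was at 141 and 142 CPM against 2.49 and 3.59 CPM.

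Genes of chromatin, high mobility group proteins and tubulins that dividing cells use followed the same direction, with 19 of 21 at least 2-fold higher (median log2 ratio 3.00 and 2.94). Stmn1, which destabilizes microtubules, came first in that ranking, at 808 and 752 CPM against 14.3 and 16.1 CPM (log2 ratios of 5.39 and 5.17). Tuba1b and Tubb5, an alpha and a beta tubulin, were at 309 and 392 CPM and at 558 and 453 CPM in precursors, against 6.44 to 17.0 CPM in non-cycling cells. Ptma, a nuclear acidic protein of proliferating cells, was at 851 and 744 CPM against 49.0 and 49.4 CPM. Lmnb1, the gene for lamin B1 of the nuclear envelope, went the other way, at 343 and 284 CPM against 645 and 524 CPM, without reaching 2-fold.

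Regulators that hold or release the cycle were divided. Of 21 genes 6 were at least 2-fold higher and 4 at least 2-fold lower, beside 11.6% and 3.96% of all genes. Cdk4, the D-cyclin kinase, was at 23.2 and 23.8 CPM against 4.36 and 3.42 CPM, whereas Ccnd3, the D-cyclin of granulocytes, differed little (339 and 337 CPM against 309 and 325 CPM). The higher genes included inhibitors of the cycle: Cdkn2c, the gene for the CDK4 and CDK6 inhibitor p18, was at 54.3 and 44.1 CPM against 2.08 and 1.37 CPM. E2f7 and E2f8, repressors that turn off E2F targets late in S phase, had log2 ratios of 3.51 and 3.10 and of 3.13 and 2.96. The lower genes were Btg1, Btg2, Tob1 and Mxd1, antiproliferative genes. Mxd1, an antagonist of Myc at shared promoters, was at 192 and 177 CPM in precursors and at 546 and 513 CPM in non-cycling cells.

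**Figure D2:**
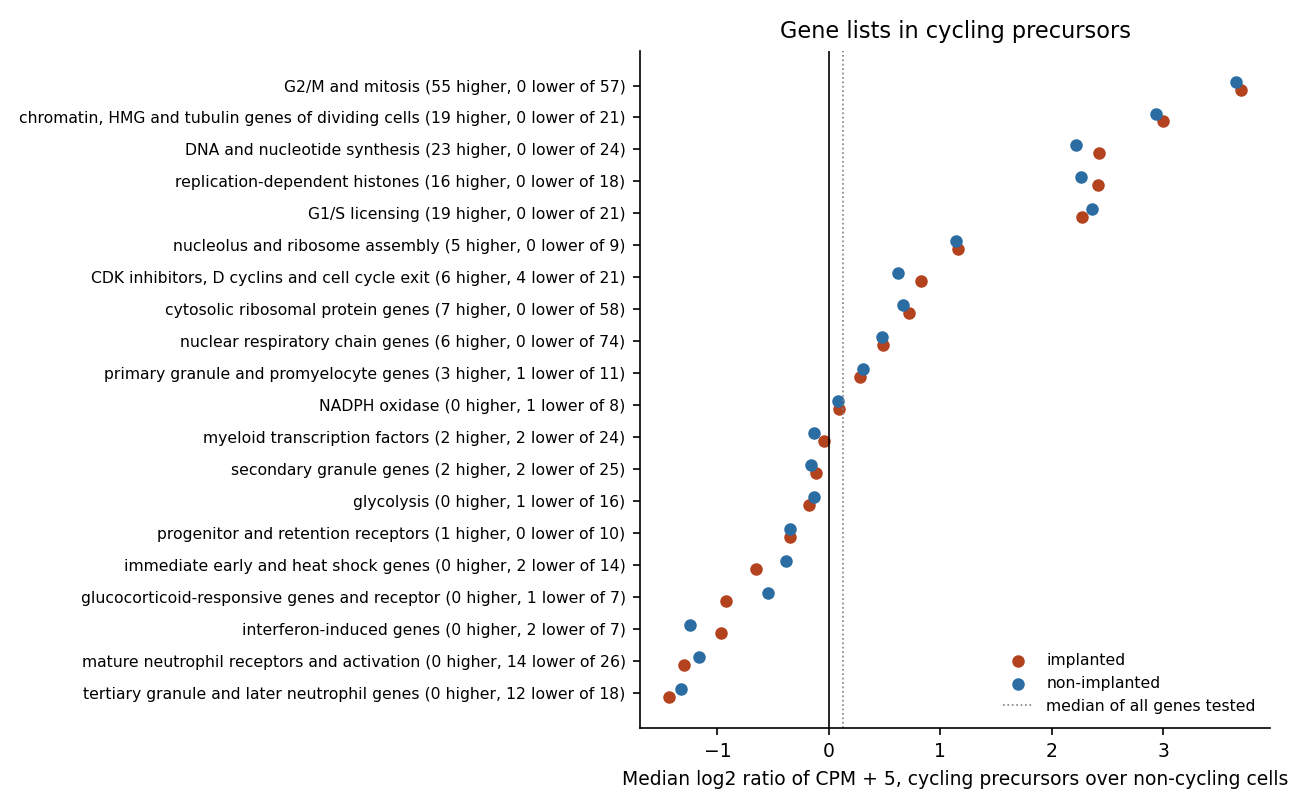
Median log2 ratio of CPM plus 5, cycling precursors over non-cycling cells (x axis), for 20 gene lists (y axis, with the number of genes at least 2-fold higher or lower in both libraries of those with enough counts), in the implanted (red) and non-implanted (blue) library. The mitosis list has the highest medians (3.70 and 3.65) and the tertiary granule list the lowest (-1.44 and -1.33), while the dotted line marks the median of all genes (0.13).

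Promoters of the mitotic list carried the cell cycle homology letters more often than promoters of all genes with enough counts. TTTGAA on either strand within 250 bases before the start was found in 16 of 47 promoters of the G2/M list (34.0%), in 10.4% of 5745 promoters of genes with enough counts and in 16.3% of 27025 promoters in all. CCAAT was found in 72.3% of the G2/M promoters against 37.1% and 34.5%, and both motifs in 27.7% against 4.32% and 5.73%. E2F letters were found in 17 of 42 promoters of the G1/S and DNA synthesis lists (40.5%) against 15.5% of those of genes with enough counts and 7.97% of all. They were found in 0 of 24 promoters of the secondary granule list and 0 of 18 of the tertiary granule list. TTTGAA was found in 5 of these 24 promoters (20.8%) and in 3 of these 18 (16.7%), both above the 10.4%. Within 100 bases it was found in 19.1% of the G2/M, 16.7% of the secondary and 0 of the tertiary granule promoters, against 3.12% for genes with enough counts. The TTTGAA letters were thus not particular to the mitotic list. CCAAT was found in 59.5% of the G1/S and DNA synthesis promoters, 45.8% of the secondary and 44.4% of the tertiary granule promoters. All of these lie above the 37.1%, so CCAAT was not particular to the mitotic list either. These are matches of letters and not sites of binding, and no test was made of the shares.

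Granule genes differed between the precursors and the cells set beside them. Elane (neutrophil elastase) was at 31.4 and 44.1 CPM in precursors and at 5547 and 4226 CPM in the dividing cells with 20 or more primary granule UMIs, a contrast that the rule sets. Ms4a3, a membrane protein of granulocyte progenitors that the rule did not use, was at 654 and 561 CPM in those cells, at 142 and 135 CPM in precursors and at 18.9 and 17.6 CPM in non-cycling cells. Fcnb, the gene for the lectin ficolin B, had the same order with 1534 and 1588 CPM, then 796 and 746 CPM, then 165 and 193 CPM. Both genes were thus at a middle level in the cycling precursors of either library. Of 11 primary granule and promyelocyte genes outside the rule, Ms4a3, Prss57 and Nkg7 were at least 2-fold higher in precursors than in non-cycling cells and Srgn (the granule proteoglycan serglycin) at least 2-fold lower. These counts stand beside 11.6% of all genes called higher and 3.96% called lower.

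Most secondary granule genes differed by less than 2-fold between dividing and non-cycling cells. Of 25 genes outside the rule 2 were at least 2-fold higher and 2 at least 2-fold lower (median log2 ratio -0.12 and -0.16). Of all genes 11.6% were higher and 3.96% lower. Lcn2, the siderophore-binding protein of these granules, was at 13504 and 14298 CPM in precursors against 14023 and 15280 CPM. The higher genes were Fcnb and Chil3, a chitinase-like protein of immature neutrophils, the latter with 11454 and 11040 CPM against 4863 and 5196 CPM. Ceacam10 and Adam8, a metalloprotease that sheds surface proteins, were the lower genes. Adam8 was at 55.4 and 57.6 CPM against 320 and 247 CPM.

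Later granule genes were lower in precursors. Of 18 tertiary granule and later neutrophil genes 12 were at least 2-fold lower and 0 higher (median log2 ratio -1.44 and -1.33), beside 3.96% of all genes called lower. Mmp8 (neutrophil collagenase) was at 49.6 and 96.7 CPM in precursors against 1393 and 1345 CPM, and Mmp9 (gelatinase B) was at 125 and 156 CPM against 1266 and 1245 CPM. Retnlg, a resistin-like secreted protein of neutrophils, was at 452 and 592 CPM against 7168 and 6655 CPM. Cells with 3 to 9 division UMIs lay between, with 130 and 182 CPM of Mmp8 and 1605 and 1031 CPM of Retnlg. S100a8 and S100a9, the calprotectin subunits, were members of the same list that differed little: S100a8 was at 144000 and 147658 CPM against 152236 and 155849 CPM. S100a6, a calcium-binding protein of the same family, was at 230 and 380 CPM against 2129 and 2300 CPM.

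**Figure D3:**
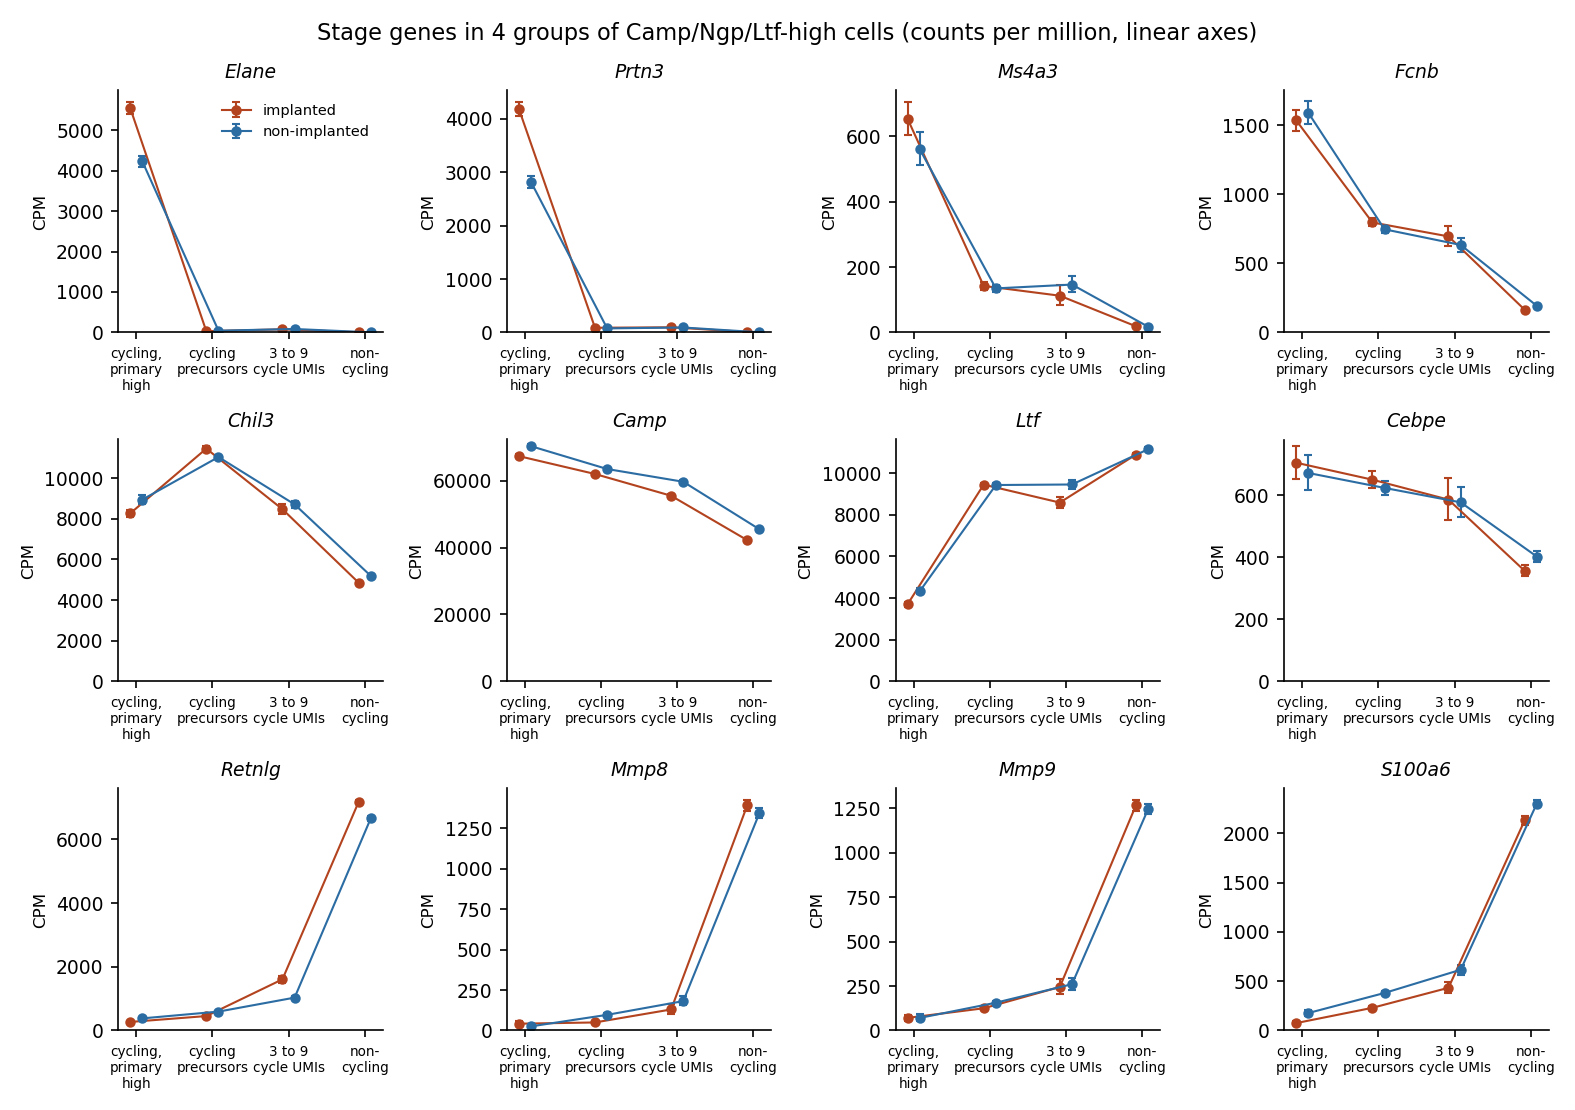
CPM on linear axes from 0 (y axis) for 12 stage genes in dividing cells with 20 or more primary granule UMIs, cycling precursors, cells with 3 to 9 division UMIs and non-cycling cells (x axis), in the implanted (red) and non-implanted (blue) library, with exact 95% Poisson bars for counting error. Elane, Prtn3 and Fcnb are highest in the first group, Chil3 in the precursors (11454 and 11040 CPM), and Retnlg, Mmp8, Mmp9 and S100a6 in the non-cycling cells.

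Receptors and activation genes of mature neutrophils were lower with the tertiary granule genes: 14 of 26 were at least 2-fold lower and 0 higher (median log2 ratio -1.30 and -1.17), beside 3.96% of all genes called lower. Cxcr2, the receptor for neutrophil-attracting CXC chemokines, was at 22.9 and 39.1 CPM against 122 and 129 CPM. Fpr1, the formyl peptide receptor, was at 9.92 and 17.6 CPM against 102 and 121 CPM, and Clec4e, a lectin for microbial glycolipids, at 47.7 and 49.6 CPM against 221 and 205 CPM. All of these receptors were lower in the precursors of both libraries. Cxcr4, which holds neutrophils in the marrow, differed by less than 2-fold (90.4 and 115 CPM against 120 and 159 CPM). Vcam1, an adhesion molecule that the list of progenitor and retention receptors contains, was at 55.1 and 67.5 CPM against 6.23 and 7.86 CPM. It was the single gene of 10 in its list past 2-fold, a share close to the 11.6% of all genes called higher. Mmp8 lay lower still than the 12 genes named for low ratios, and was left out of that ranking because 1 implanted precursor held 21.7% of its UMIs. Other genes of the 12 were Thbs1, Scrg1, Hacd4, Timp2, Bmx, Prr13, Osm and 1700047M11Rik.

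Of 24 myeloid transcription factors 2 were at least 2-fold higher and 2 at least 2-fold lower, counts to be read against 11.6% and 3.96% of all genes. Gfi1, a repressor needed for granulocyte maturation, was at 28.1 and 25.8 CPM against 8.51 and 9.40 CPM, and Foxm1, the mitotic factor, had log2 ratios of 2.08 and 1.79. Cebpe, which drives secondary granule genes, was at 650 and 624 CPM against 357 and 403 CPM, under 2-fold. Spi1, the gene for PU.1, differed little (353 and 348 CPM against 386 and 394 CPM). The lower factors were Egr1 and Junb, immediate early genes. Junb was at 160 and 188 CPM against 515 and 462 CPM.

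Genes for making ribosomes were in part higher, while ribosomal protein and respiratory chain genes passed 2-fold about as often as all genes. Of 9 nucleolar genes 5 were at least 2-fold higher, among them Npm1, the gene for nucleophosmin, at 77.7 and 74.3 CPM against 23.9 and 26.5 CPM. The median log2 ratio was 0.72 and 0.67 over 58 cytosolic ribosomal protein genes, of which 7 passed 2-fold, and 0.49 and 0.48 over 74 nuclear respiratory chain genes, of which 6 passed, counts to be read against the 11.6% of all genes. Under all alternatives run, the scalings included, the medians of both lists stayed above 0, between 0.21 and 0.87. Rps2, a protein of the small subunit, was at 181 and 282 CPM in precursors, at 62.1 and 119 CPM in non-cycling cells and at 796 and 989 CPM in the dividing cells with 20 or more primary granule UMIs. Ribosomal protein genes have many processed pseudogenes in the annotation that the files use, so levels of single members are uncertain. Of 16 glycolysis genes 0 were higher and 1 was lower, Slc16a3, a lactate exporter.

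The precursors also held more counted molecules in each cell. A precursor held on average 13849 UMIs in implanted and 15291 UMIs in non-implanted cochleae, 2.33 and 2.37 times the mean of the non-cycling cells. Molecules of Ltf per cell were 2.02 and 2.00 times as many although its CPM was lower, and those of S100a8 2.20 and 2.24 times as many. Fcnb reached 11.2 and 9.17 times, Chil3 5.48 and 5.03 times, while Mmp8 was at 0.0828 and 0.170 times the molecules per cell. Lower CPM of Ltf and S100a8 in precursors thus went with more counted molecules per cell, whereas Mmp8 was lower on both scales. Capture efficiency per cell cannot be told apart from RNA content. The gates also count raw UMIs, at least 10 for precursors and 0 to 2 for non-cycling cells. They favour deep cells in the first group and shallow cells in the second. How much of these per-cell ratios the choice of cells sets was not tested.

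Interferon-induced, immediate early and glucocorticoid-responsive genes are short lists with 0 genes called higher and 5 calls lower against the non-cycling cells, beside the 3.96% of all genes called lower. Of 7 interferon-induced genes 2 were at least 2-fold lower and 0 higher. Ifitm3, a restriction factor against virus entry, was at 391 and 424 CPM against 802 and 859 CPM. Of 14 immediate early and heat shock genes 2 were lower, Egr1 and Zfp36, and of 7 glucocorticoid-responsive genes 1 was lower, Il1r2, the decoy receptor for interleukin-1, at 162 and 144 CPM against 616 and 412 CPM. Nr3c1, the glucocorticoid receptor, was at 114 and 105 CPM against 113 and 112 CPM.

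The precursors differed among themselves in the balance of replication and mitotic transcripts. Each cell was thinned to 5000 UMIs, which left 257 implanted and 283 non-implanted cells, and UMIs of 52 G1/S and DNA synthesis genes were set beside those of 57 G2/M genes. The median cell held 11 and 10 UMIs of the first kind and 36 and 35 of the second. The G2/M part of their sum had a median of 76.3% in implanted (interval 73.2 to 79.3) and 76.8% in non-implanted precursors (74.5 to 80.0), with quartiles of 62.5 and 87.0% and of 61.2 and 89.6%. It was under 50% in 32 implanted (12.5%) and 38 non-implanted cells (13.4%) and over 90% in 49 (19.1%) and 66 (23.3%). The values form a range and give no phase of a cell, and the libraries covered the same range.

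**Figure D4:**
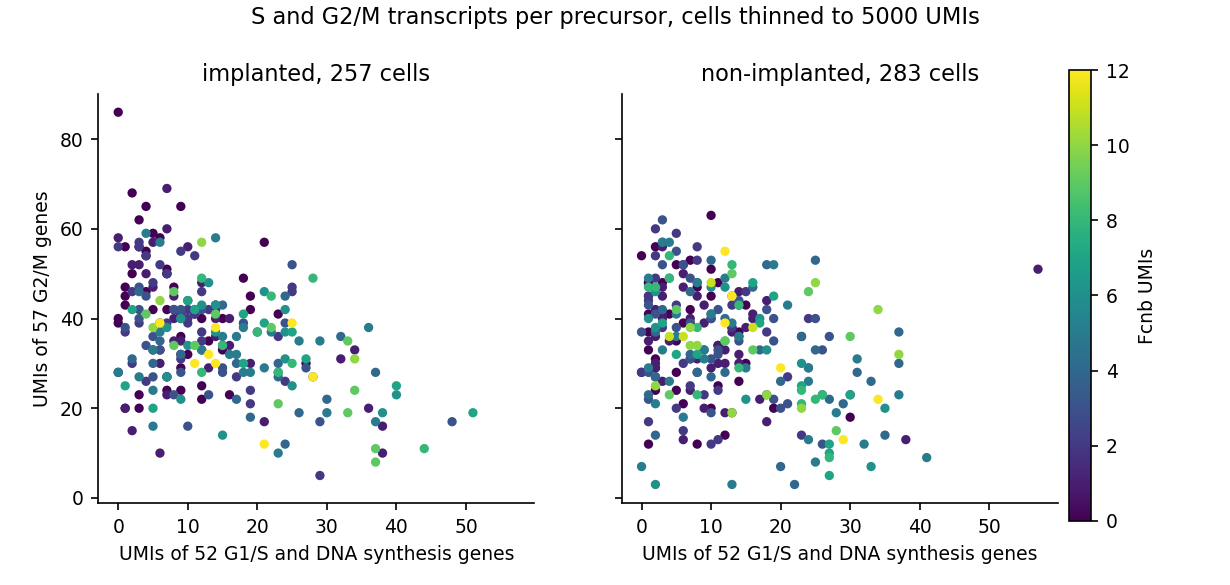
UMIs of 52 G1/S and DNA synthesis genes (x axis) against UMIs of 57 G2/M genes (y axis) per precursor thinned to 5000 UMIs, for 257 implanted and 283 non-implanted cells, coloured by Fcnb UMIs (colour scale ends at 12). Cells rich in replication transcripts hold fewer mitotic ones in both libraries, and cells with many Fcnb UMIs lie more often toward the right.

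Fcnb and Lyz2 were higher in the replication-rich precursors. The 65 implanted and 71 non-implanted cells with the lowest G2/M part were set against as many with the highest, a split that fixes the values of the listed cycle genes but not those of the genes given here. Fcnb was at 1073 and 454 CPM in the replication-rich and mitosis-rich cells of the implanted library, a ratio of 2.36 (2.10 to 2.66), and at 989 and 581 CPM in the non-implanted library, a ratio of 1.70 (1.54 to 1.88). Lyz2, the gene for lysozyme, had ratios of 1.45 and 1.37. Ms4a3 had ratios of 1.69 and 1.57 and Cdk4 of 6.34 and 8.59, so that these genes were on the replication side in both libraries. On the mitotic side were Gfi1 with ratios of 0.31 (0.16 to 0.58) and 0.44 (0.22 to 0.82), Cebpe with 0.74 and 0.81, and S100a8 with 0.91 and 0.92. Gfi1 had few counts, and over all thinned cells its Spearman correlation with the G2/M part was 0.23 in implanted but 0.02 in non-implanted cells. Stmn1 had ratios of 1.84 and 2.27, while Ltf (1.00 and 1.08) and Chil3 (0.99 and 1.08) were nearly level. Over all thinned cells the Spearman correlation of Fcnb with the G2/M part was -0.39 in 257 implanted and -0.26 in 283 non-implanted cells, which share library and depth.

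The precursors also differed by the primary granule transcripts that the rule allowed. Cells with 0 UMIs of Elane, Prtn3, Mpo and Ctsg (133 implanted and 155 non-implanted), with 1 to 4 (103 and 92) and with 5 to 19 (26 and 39) had Fcnb at 500.0, 898 and 1538 CPM in the implanted library and at 506, 873 and 1122 CPM in the non-implanted library. Ltf went the other way, at 10002, 9382 and 7623 CPM and at 9916, 9532 and 7975 CPM. Mmp9 was at 164, 111 and 27.0 CPM and at 203, 144 and 58.9 CPM over the same classes. The summed replication genes were at 2322, 2931 and 3388 CPM and at 2252, 2473 and 2938 CPM. Replication transcripts and Fcnb thus rose with the class, as sums over its cells. Over single thinned cells the Spearman correlation of Elane with the G2/M part was -0.27 in implanted and -0.08 in non-implanted cells. That of Prtn3 was -0.15 and -0.07. With Fcnb the correlations were 0.29 and 0.21 for Elane and 0.36 and 0.23 for Prtn3. Median depth moved with the classes, from 11978 to 17037 UMIs and from 12739 to 19141 UMIs, and its part was not tested.

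A small set of precursors held later transcripts. With at least 20 UMIs of Mmp8, Retnlg and Mmp9 together there were 22 implanted (8.40%) and 33 non-implanted cells (11.5%), and these held 59.2% and 74.9% of the UMIs of these genes in all precursors. Mmp8 was at 387 and 497 CPM in them against 12.5 and 21.5 CPM in the other precursors, and Camp at 47782 and 54663 CPM against 63505 and 65085 CPM. Their median depth was 15276.5 and 18960 UMIs against 12974.5 and 13574 UMIs, and 27.3% and 33.3% of them had a doublet score in the top range against 2.08% and 1.98% of the others. The part of doublets in this set was not tested.

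The second comparison set implanted against non-implanted precursors. Few genes passed 1.5-fold: 101 of 7775 (1.3%) were higher in the implanted library and 82 (1.05%) lower, with an all-gene median log2 ratio of 0.04. In the non-cycling cells 112 of 7541 (1.49%) were higher and 38 (0.504%) lower. Other scalings turned the balance in the precursors, to 80 higher and 113 lower with median of ratios, 80 and 115 with TMM and 137 and 166 with totals that leave out the 20 most abundant genes, so that higher genes made up 41.0 to 45.2% of calls in place of 55.2%. Of 6869 genes with enough counts in both cell groups 20 were higher in both, which is 29.9% of the 67 higher in precursors and 23.5% of the 85 higher in non-cycling cells, and 12 were lower in both (16.4% of 73 and 37.5% of 32). Differences between animals, ears, mix of sexes and library preparation cannot be told apart from implantation here. Xist without Y-linked transcripts was present in 14.1% of implanted and 18.9% of non-implanted precursors, and in 7.05% and 12.1% of non-cycling cells. Y-linked transcripts without Xist were present in 51.9% and 46.9% of precursors, and in 36.0% and 33.2% of non-cycling cells.

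Among cells that had passed the same gate on division UMIs, the division programme showed no library difference of 1.5-fold. The shared gate can itself make levels of division genes alike in both libraries, so these values are descriptions. How much of the likeness the gate sets was not tested. Of 57 G2/M genes, 24 G1/S genes and the DNA synthesis genes 0 passed in either direction, and the G2/M median log2 ratio was 0.09. Ccna2 was at 165 CPM in implanted and 141 CPM in non-implanted precursors (log2 ratio 0.22) and Mcm6 at 61.2 and 55.3 CPM (0.13). Histones were the exception: of 25 genes 1 was higher and 2 were lower. Hist1h2ap was at 187 CPM in the implanted and 69.5 CPM in the non-implanted precursors (ratio 2.69, interval 2.34 to 3.09), while Hist1h2af was at 4.96 and 13.5 CPM (0.37, 0.20 to 0.63). As members of the same gene family lie in opposite directions and share near-identical sequence, how reads were split between them is uncertain.

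Some later neutrophil genes were lower in the implanted precursors. Of 18 tertiary granule and later genes 4 were at least 1.5-fold lower and 0 higher, beside a background of 1.05%, with a median log2 ratio of -0.21, and 1 to 6 genes were lower over the alternatives run. Mmp8 was at 49.6 CPM in the implanted and 96.7 CPM in the non-implanted precursors (ratio of CPM with its counting interval 0.51, 0.43 to 0.61), and S100a6 at 230 and 380 CPM (0.60, 0.55 to 0.66). In the non-cycling cells the ratios were 1.04 for Mmp8 and 0.93 for S100a6. Asprv1 and Ccl6, a CC chemokine of neutrophils, were the other lower genes of the list, and Cxcr2 (0.58, 0.44 to 0.76) and Fpr1 were lower among the receptors. The cells with at least 20 UMIs of Mmp8, Retnlg and Mmp9 were chosen by these genes, so values without them describe the other cells only: without those 22 and 33 cells 1 of the 16 genes that then had enough counts was past 1.5-fold, the median was -0.02, the log2 ratio of Mmp8 was -0.59 in place of -0.90 and that of S100a6 was -0.45 in place of -0.72. Without the 3 cells with markers of other types the log2 ratio of Mmp8 was -1.21. Of the 22 and 33 cells with later transcripts 27.3% and 33.3% had a doublet score in the top range, and transcripts of both sexes were present in 2.29% of implanted and 7.69% of non-implanted precursors. The part of doublets in the difference was not tested.

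Among the genes with the highest ratios, Thbs1, the gene for the matrix protein thrombospondin 1, was at 124 CPM in implanted and 50.3 CPM in non-implanted precursors (log2 ratio 1.22, and 1.09 without the 3 cells). It was at 751 and 452 CPM in the non-cycling cells (0.73), so it was higher in the implanted library in both cell groups. Olfm4, a secondary granule protein that a subset of neutrophils makes, was at 51.8 and 24.0 CPM (0.97) in precursors and at 65.2 and 40.2 CPM (0.64) in non-cycling cells. Cd14, the lipopolysaccharide coreceptor, was at 72.8 and 42.8 CPM (0.70) in precursors and at 150 and 78.0 CPM in non-cycling cells. Cebpb, a transcription factor of emergency granulopoiesis, was at 469 and 334 CPM (0.49) and stayed under 1.5-fold. Slain1 (a microtubule-binding protein), Cables1 (a binding partner of CDK2), Hilpda (a lipid droplet protein), Usp33 (a deubiquitinase), Gm10076, Gm43655, Gm8730, Gm12267 and Gm14450 made up the rest of the 12 highest with Hist1h2ap.

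Many of the lowest ratios belonged to ribosomal protein genes and their copies. Of 61 cytosolic ribosomal protein genes 10 were at least 1.5-fold lower in the implanted precursors and 0 higher, beside a background of 1.05%. The list as a whole was level: its median log2 ratio was -0.04 in precursors and -0.04 in non-cycling cells. Its summed level was 10522 CPM in implanted and 10742 CPM in non-implanted precursors. Rpl19 was at 28.9 CPM in the implanted and 54.7 CPM in the non-implanted precursors (log2 ratio -0.81) and in the non-cycling cells at 15.8 and 33.0 CPM (-0.87). Rps19, a protein of the small subunit, had ratios of 0.51 (0.38 to 0.69) and 0.42 (0.27 to 0.65). Both genes were lower in the implanted library in either cell group. The pseudogene-named rows Rps25-ps1, Rpl9-ps6 and Rps13-ps2 were lower as well, while Gm10076 was higher in both cell groups (log2 ratios of 1.36 and 1.00), and reads of such copies cannot be assigned with certainty. Camk1d, a calcium-dependent kinase, was at 59.0 and 116 CPM (-0.92) in precursors and at 151 and 186 CPM (-0.29) in non-cycling cells. Gm6030, Gm44662, Slc9a9, Hip1 and Ifi27l2a made up the rest of the 12 lowest with Mmp8 and Hist1h2af.

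**Figure D5:**
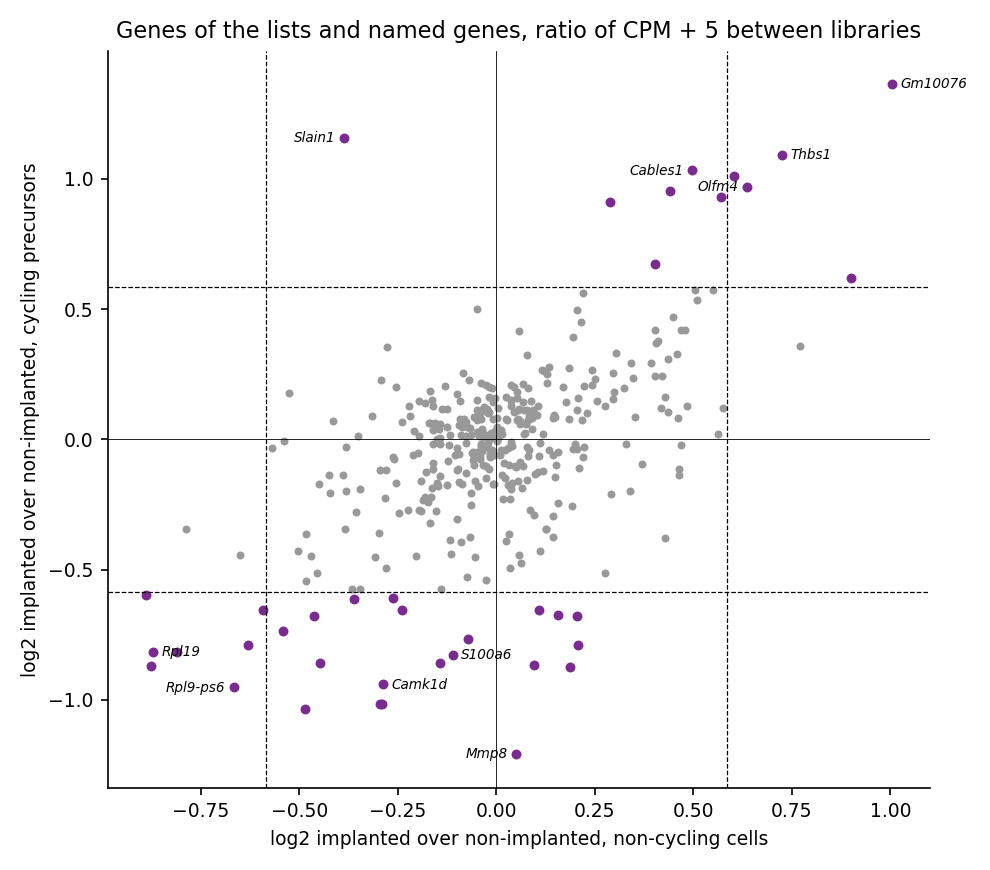
Log2 ratio of CPM plus 5, implanted over non-implanted, in non-cycling cells (x axis) and in cycling precursors without the 3 cells that held markers of other types (y axis), for 387 genes of the lists and named genes with enough counts in both, with dashed lines at 1.5-fold. Purple marks 38 genes past 1.5-fold in precursors. Mmp8 and S100a6 lie low in precursors and near 0 in non-cycling cells, whereas Thbs1, Olfm4 and Gm10076 are high in both.

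Of the groups that respond to interferon, stress or glucocorticoids, the first pair held genes lower in the implanted precursors, beside the background of 1.05%. Of 7 glucocorticoid-responsive genes 0 passed 1.5-fold (median log2 ratio 0.01), and Fkbp5, a chaperone that glucocorticoids induce, was at 64.2 CPM in the implanted and 63.6 CPM in the non-implanted precursors. Tsc22d3, the gene for the leucine zipper protein GILZ, was at 80.2 and 104 CPM. Of 14 immediate early and heat shock genes 2 were lower, Hspa1a and Hsph1, and of 6 interferon-induced genes 2 were lower, Ifi27l2a and Ly6e. Hspa1a, an inducible heat shock protein, was at 33.3 CPM in the implanted and 58.1 CPM in the non-implanted precursors. Secondary granule genes outside the rule were level, with 1 of 24 past 1.5-fold: Lcn2 was at 13504 and 14298 CPM and Fcnb at 796 and 746 CPM. Camp, a gene of the rule and not among these 24, was at 61950 and 63435 CPM, given as a description only.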

How the data were processed

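The deposited values are UMI counts per gene and cell barcode, made by the authors with Cell Ranger 3.0.1 per the file headers; the submitters' processing notes name the builds mm10 and GRCm38 and also Seurat. The labels' extraction protocol describes another tissue preparation and was not used. The libraries held 3231 and 3572 barcodes with 19593003 and 21577033 UMIs, of which 82 and 59 barcodes failed the filters. The members and gene lists were chosen with earlier results of these data known. Counts of each cell group were summed per library and scaled to CPM, and log2 ratios used a pseudocount of 5 CPM over genes with at least 50 UMIs. Calls against non-cycling cells needed 2-fold in both libraries, and calls between libraries 1.5-fold. The 12 highest and 12 lowest genes of each comparison were named among genes with at most 10% of UMIs in 1 cell, in the first comparison within each cell group of each library and ranked by the library nearer 0, in the second over the precursors of both libraries together and where the exact interval left out 1; the genes of the rule and the most abundant and most extreme members of each of 20 lists could be named as well, and a few others were chosen after their values were seen. Intervals at 95% were Clopper-Pearson for shares, Newcombe for their differences, exact Poisson for CPM and exact conditional for ratios. Doublets were scored with Scrublet (scanpy 1.11.5) and marked at 0.8% per 1000 barcodes, and were kept. Promoters were matched by symbol to RefSeq for 5745 of 7600 genes. Spike-in and transgene rows were left out of the lists. Scripts ran on python 3.11.15, numpy 2.4.6, pandas 2.3.3 and scipy 1.17.1 and were tested on simulated data. Alternatives covered gates, depth, doublets, scaling, pseudocount, low-count filters and weights of cells.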

Additional observations from a re-analysis of the deposited data

Results flagged for a closer look

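Globin genes and Pparg lay in opposite directions between libraries in precursors and in non-cycling cells, a difference that was not tested. The log2 ratio of implanted over non-implanted was -3.61 for Hba-a1, -2.74 for Hba-a2 and -3.21 for Hbb-bs in precursors, and 0.60, 0.65 and 0.65 in non-cycling cells. In the non-implanted precursors 1 cell held 96.1%, 91.7% and 96.0% of their UMIs, and without the 3 cells with markers of other types the ratios were 0.06, -0.20 and 0.96. Pparg, a nuclear receptor of lipid metabolism, had a log2 ratio of -1.25 in precursors (7 and 50 UMIs, with 30.0% of the latter in 1 cell) and 0.64 in non-cycling cells.

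Mmp8 and Retnlg lay on opposite sides of the cycle in the libraries, which was also not tested. Replication-rich over mitosis-rich precursors had a ratio of 2.76 for Mmp8 and 1.49 for Retnlg in the implanted library, and of 0.27 and 0.38 in the non-implanted library. These transcripts sit mostly in 22 and 33 cells.

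Rows of ERCC spike-in controls held 4 UMIs in implanted precursors and 1 in non-implanted ones, of 11 in each library.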

How the results depend on the processing

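The share of precursors reached 9.53% of implanted and 9.88% of non-implanted cells with a limit of 5 division UMIs, and 7.06% of non-implanted cells with a limit of 20. Among cells thinned to 5000 UMIs it was 16.9% (236 of 1393) and 14.6% (223 of 1523), a difference of 2.30 percentage points. Thinning left out all cells under 5000 UMIs, so these shares have a smaller base than those of all filtered cells. Against non-cycling cells, a pseudocount of 20 CPM gave 420 genes higher and 149 lower, a minimum of 200 UMIs 431 higher, and median of ratios scaling 526 lower. Between libraries, pseudocounts of 1 and 20 CPM gave 213 and 27 genes higher and 198 and 23 lower, and minimums of 20 and 200 UMIs 152 and 30 higher, the latter with 33 lower. With no low-count filter 182 were higher, and without the 20 most abundant genes in the totals 166 were lower. The median G2/M part stayed between 75.6 and 78.2%. The number of G2/M genes called higher in precursors was 46 to 56, that of tertiary granule genes called lower 10 to 14, and between libraries 1 to 6 tertiary and 2 to 13 ribosomal protein genes were called lower. Of single-gene values, 375 of 391 between libraries and 807 of 1052 against non-cycling cells moved by less than counting error. The alternatives without the 3 cells with other markers and without the cells with later transcripts were chosen after seeing the data. Other causes of these shifts were not tested. With 1 library per group, no replicate could be left out. No paired analysis was possible because each group has a single library and no comparison was a test.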
